A study of Mus musculus with 46 samples.

Results

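H3.3 occupancy was compared between Day 6 and Day 9 of reprogramming in cells that had lost the fibroblast surface protein Thy-1, using the H3.3 chromatin immunoprecipitation sequencing (ChIP-Seq) libraries D6T- and D9T-, which are 2 of the 46 samples of the series. The series follows mouse embryonic fibroblasts (MEFs) on the way to induced pluripotent stem cells (iPSCs), with cells sorted from Day 6 on, by Thy-1 at Days 6 and 9 and by SSEA-1 later, into a fraction that goes on and a fraction that does not. Members of the comparison were the 82764 H3.3 peaks listed for D6T- and the 68394 listed for D9T-, and the protein-coding genes they cover. A peak was kept when it overlapped a peak of the other day by at least 1 bp. A D6T- peak without such an overlap was called lost, and a D9T- peak without one was called gained. Because the longer list has more chances to hold unmatched peaks, the main counts of peaks and genes were repeated with the 68394 highest-scoring peaks of either day.

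Both groups were MEFs infected with retroviral pMXs vectors for Sox2, Klf4, Oct4 and c-Myc (OSKM) in the presence of polybrene, then kept without feeder cells in serum replacement medium with LIF, ascorbic acid, bFGF and CHIR99021. The MEFs came from mice that carry GFP at Oct4, so that both groups share that allele, the retroviral factors and the medium named in the labels. D6T- cells were sorted as Thy-1- at Day 6 after OSKM induction and D9T- cells as Thy-1- at Day 9, and both were precipitated with the same lot of H3.3 antibody. Thy-1- cells are a sorted population and not a clone, so that a change within cells and a changed mix of cells cannot be told apart. Each day had 1 library and its own input, so no difference below has a replicate check, and no p-value was computed. Intervals given below cover counting error only.

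H3.3 is a replacement variant of histone H3. Unlike the canonical H3 proteins, which are put into chromatin as DNA is copied, it is deposited throughout the cell cycle. The Hira complex places it over active genes and regulatory elements, and Atrx with Daxx places it at telomeres and other repeats. In reprogramming, fibroblast genes are shut down, epithelial genes come on early and the pluripotency network late.

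Examples of unmatched distal peaks are shown so that the kind of sequence behind the highest scores can be read directly. Each line holds the 300 bp at the midpoint of a peak at least 1000 bp from any start site and outside exons, on the plus strand of mm9. Capitals mark matches, on either strand, to the AP-1 motif TGANTCA, the TEAD motif GGAATG, the OCT motif ATGCAAA, the SOX motif ACAATGG or the KLF motif GGGTGTG. These 3 are the highest-scoring gained peaks within these limits, among the loci reported here.
gained peak A, chr17:35637707-35638006: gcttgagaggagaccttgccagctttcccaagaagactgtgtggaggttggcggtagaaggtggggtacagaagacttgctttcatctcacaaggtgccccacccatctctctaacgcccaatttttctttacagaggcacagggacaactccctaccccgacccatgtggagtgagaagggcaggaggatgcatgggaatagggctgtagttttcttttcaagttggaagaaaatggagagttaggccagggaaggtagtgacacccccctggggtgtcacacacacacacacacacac
gained peak B, chr17:35650477-35650776: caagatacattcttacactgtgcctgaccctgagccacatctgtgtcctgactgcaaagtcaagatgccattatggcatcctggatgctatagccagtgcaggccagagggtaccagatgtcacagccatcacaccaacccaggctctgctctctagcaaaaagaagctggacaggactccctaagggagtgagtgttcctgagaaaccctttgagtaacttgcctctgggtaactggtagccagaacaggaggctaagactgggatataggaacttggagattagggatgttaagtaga
gained peak C, chr6:47705318-47705617: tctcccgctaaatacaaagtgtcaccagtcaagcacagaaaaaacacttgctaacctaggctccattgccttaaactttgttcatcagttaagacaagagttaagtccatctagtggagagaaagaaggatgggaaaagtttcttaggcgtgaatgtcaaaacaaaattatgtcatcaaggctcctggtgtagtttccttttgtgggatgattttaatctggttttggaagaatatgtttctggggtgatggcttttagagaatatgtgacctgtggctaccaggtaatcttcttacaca

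These 3 peaks were not typical of the gained set. The score of a peak is its Normalized Tag Count, the number of tags in the peak per 10 M tags of the library, with no division by length and no subtraction of input. Gained peak A scored 169 and lay 5.13 kb from the start of Pou5f1, over input 23.2 times as dense as in the median peak. Gained peak B, at a transcript end 2.87 kb from the start of Tcf19, scored 149.7 at 29.2 times the median input density, and gained peak C scored 114.3 at 25.7 times. Such peaks were rare but crowded the top of the lists: input of at least 5 times the median density lay under 21 of 41262 lost and 15 of 23211 gained peaks, but under 6 of the 20 highest-scoring lost and 8 of the 20 highest-scoring gained peaks.

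A second set of 6 shows peaks without dense input. They were chosen after their values were seen, among the loci reported here. They are the highest-scoring distal lost and gained peaks with input up to 2 times the median density and at least 3-fold enrichment over input.
lost peak A, chr6:119756510-119756809: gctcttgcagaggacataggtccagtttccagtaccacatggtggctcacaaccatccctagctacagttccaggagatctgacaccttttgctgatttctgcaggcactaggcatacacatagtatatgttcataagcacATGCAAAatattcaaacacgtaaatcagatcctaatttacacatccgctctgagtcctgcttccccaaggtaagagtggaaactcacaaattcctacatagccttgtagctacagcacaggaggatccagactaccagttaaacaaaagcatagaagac
lost peak B, chr12:53426230-53426529: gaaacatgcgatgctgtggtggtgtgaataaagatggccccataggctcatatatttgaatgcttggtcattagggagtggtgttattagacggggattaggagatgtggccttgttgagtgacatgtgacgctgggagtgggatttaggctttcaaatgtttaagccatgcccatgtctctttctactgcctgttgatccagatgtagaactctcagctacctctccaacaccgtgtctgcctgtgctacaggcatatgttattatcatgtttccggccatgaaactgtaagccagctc
lost peak C, chr9:72431968-72432267: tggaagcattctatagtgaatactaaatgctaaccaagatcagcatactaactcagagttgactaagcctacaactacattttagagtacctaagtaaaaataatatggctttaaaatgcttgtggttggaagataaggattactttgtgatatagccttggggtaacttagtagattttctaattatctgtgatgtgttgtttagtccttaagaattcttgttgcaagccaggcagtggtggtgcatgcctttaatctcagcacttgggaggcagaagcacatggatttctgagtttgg
gained peak D, chr1:8930026-8930325: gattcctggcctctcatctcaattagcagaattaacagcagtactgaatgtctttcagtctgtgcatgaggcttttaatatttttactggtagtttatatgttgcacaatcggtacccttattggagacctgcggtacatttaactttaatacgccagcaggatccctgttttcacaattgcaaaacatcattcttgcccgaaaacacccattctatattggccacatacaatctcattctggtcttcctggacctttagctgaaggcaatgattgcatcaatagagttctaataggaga
gained peak E, chr2:172649341-172649640: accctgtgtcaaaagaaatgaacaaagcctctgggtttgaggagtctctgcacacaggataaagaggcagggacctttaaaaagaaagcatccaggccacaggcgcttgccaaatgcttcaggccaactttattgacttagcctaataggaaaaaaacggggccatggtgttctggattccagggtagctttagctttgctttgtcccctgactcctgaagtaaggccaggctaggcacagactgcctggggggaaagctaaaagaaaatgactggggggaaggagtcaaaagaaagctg
gained peak F, chr10:60597636-60597935: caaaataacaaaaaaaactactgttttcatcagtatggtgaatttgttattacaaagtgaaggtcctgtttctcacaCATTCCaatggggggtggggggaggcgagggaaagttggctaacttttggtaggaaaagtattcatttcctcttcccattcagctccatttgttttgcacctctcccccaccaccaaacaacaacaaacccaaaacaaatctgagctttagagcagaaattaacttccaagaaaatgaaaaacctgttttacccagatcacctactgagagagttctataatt

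The plain peaks were several kb long. Lost peak A, in an intron of Erc1, scored 79.7 over 5490 bp, and its printed window held an OCT match. Lost peak B, between genes and 149 kb from the start of Nubpl, scored 75.5, and lost peak C, in an intron of Rfx7, also scored 75.5. Lost peak C was covered in D3, D6T-, D6T+ and D12S- of the 12 reprogramming H3.3 libraries. Besides D6T-, lost peak A was covered in D0, D3, D6T+, D9T+ and D16S+, and lost peak B in D0, D3, D6T+, D9T+ and D12S-. Gained peak D scored 60.5 in an intron of Sntg1, which codes for syntrophin gamma 1, and was also covered in D9T+, D12S-, D12S+, D16S+ and ESD3, the embryonic stem cell line. Gained peak E scored 59.2 at 116 kb from the start of Bmp7, a signalling ligand, and was covered in D9T+, D12S-, D16S-, D12S+, D16S+, iPSCs and ESD3 but in none of D0, D3 and D6T+. Gained peak F scored 56.4 in an intron of Sgpl1, the gene of the lyase that degrades sphingosine 1-phosphate, and its window held a TEAD match. Peak F was also covered in D0, D3, D6T+, D9T+, D12S-, D16S-, D12S+ and iPSCs.

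H3.3 peaks covered less of the genome on Day 9 than on Day 6. Coverage was 127 Mb in D6T- and 96.1 Mb in D9T-, and 63.7 Mb was covered on both days. Of the D6T- peaks, 41262 (49.9%, 95% Wilson interval 49.5 to 50.2) were lost, and of the D9T- peaks 23211 (33.9%, 33.6 to 34.3) were gained, so that 1.78 peaks were lost for each one gained. With equal numbers of top peaks, 29421 (43.0%) were lost and 25378 (37.1%) gained, a ratio of 1.16. Loss thus outnumbered gain with either list, but most of the excess went with the longer D6T- list. D6T- had 29.7 M tags with 19.3% of them in peaks, and D9T- had 32.4 M with 14.8% in peaks. The median enrichment over input was 3.92-fold in D6T- and 3.40-fold in D9T-, and 47.0% and 26.3% of peaks passed 4-fold. The part of this gap in enrichment in the loss was not tested, and with 1 library a day it cannot be told apart from the day.

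Lost and gained peaks were weak and short. The median score was 7.58 in lost peaks and 21.1 in kept D6T- peaks, and it was 6.95 in gained and 16.2 in kept D9T- peaks. Lost peaks had a median length of 625 bp and gained peaks of 500 bp, the smallest size the peak caller gives, against 1496 and 1168 bp for the kept peaks of D6T- and D9T-. Lost peaks held 21.4% of the D6T- score, and gained peaks held 13.8% of the D9T- score. The share without a partner dropped steeply with the score. Among D6T- peaks scoring 6 to 8, 77.7% were lost, against 18.9% of those scoring 20 to 40 and 7 of 3892 scoring 80 or more. Among D9T- peaks, 57.7% were gained at scores of 6 to 8, 7.25% at 20 to 40 and 4 of 2769 at 80 or more. In the lower 6 of the 7 score bands the share lost was above the share gained by more than the counting error, and in the highest band the intervals overlapped. The bands were counted on all peaks and not repeated with equal numbers. D9T- peaks thus had the longer D6T- list to match, which by itself favours a higher share lost.

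**Figure D1:**
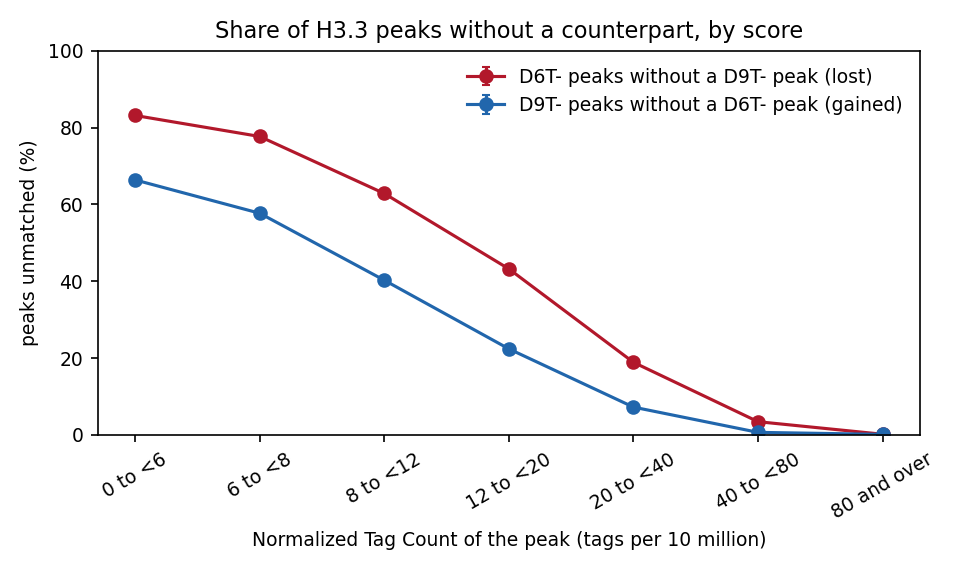
Share of H3.3 peaks without an overlapping peak on the other day (vertical axis, percent) by the Normalized Tag Count of the peak (horizontal axis, tags per 10 M), for D6T- peaks lost and D9T- peaks gained. All listed peaks of both days are counted, and bars are 95% Wilson intervals. The share lost runs from 83.2% in the lowest band to 0.180% in the highest, and the share gained from 66.4% to 0.144%.

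Kept peaks shrank as well. Of the covered length of D6T-, 31.8 Mb lay in lost peaks, and another 32.0 Mb lay in kept peaks but outside any D9T- peak. Gained peaks held 15.8 Mb, and kept D9T- peaks reached 16.6 Mb beyond the D6T- peaks. Of the kept D6T- peaks, 36391 (87.7%) lay over a single D9T- peak and 5111 (12.3%) over several, so that broad D6T- domains were in part covered by separate D9T- peaks. The covered length lost from Day 6 was therefore as much the edges and gaps of kept domains as whole peaks.

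Gained peaks were more often at promoters than lost peaks, and also more often between genes. Promoters, from 1000 bp before to 100 bp after a start site, held 4.59% of lost and 6.21% of gained peaks, a difference of 1.62 points (95% Newcombe interval 1.26 to 2.00), against 8.65% and 9.52% of kept peaks. Introns held 58.4% of lost and 52.9% of gained peaks, and regions between genes held 26.4% and 33.1%. Within genes of at least 5 kb, the first of 10 equal parts of the gene, counted from its start, held 10.6% of lost and 15.0% of gained peaks. A lost peak was therefore about as frequent in this first part as an even spread would give, whereas gained peaks were more frequent there. On the X chromosome 60.9% of D6T- peaks were lost and 49.2% of D9T- peaks were gained, both above the autosomes, where the shares ran from 46.2% to 52.4% and from 29.1% to 37.8%.

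The histone marks of the same sorted cells separated the sets too. H3K4me3, the mark of active and poised promoters, overlapped 12.2% of lost, 45.4% of kept and 18.2% of gained peaks when taken from D6T- cells. When taken from D9T- cells it overlapped 8.52% of lost and 18.5% of gained peaks, a difference of 9.99 points (9.43 to 10.6). H3K36me3, which marks the bodies of transcribed genes, overlapped 33.8% of lost and 21.6% of gained peaks in D9T-, a difference of -12.2 points (-12.9 to -11.5). In D6T- it overlapped 15.8% and 6.70%. Over all peaks, lost peaks were thus more often in H3K36me3 regions and gained peaks more often at H3K4me3 regions on either day. Levels of H3K36me3 were not compared between days, because its D6T- library had 7.50% and its D9T- library 42.4% of tags in peaks. Among peaks of at least 4-fold enrichment, the H3K4me3 difference reversed on both days, to -11.6 points in D6T- (29.1% of lost and 17.5% of gained peaks) and -1.61 in D9T-, and that of H3K36me3 was -6.85 and -2.70.

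Lost and gained peaks differed in how often they overlapped peaks of other libraries. The other libraries, none of which entered the definition of the sets, were D0 (MEFs), D3, the Thy-1 positive fractions D6T+ and D9T+, the SSEA-1 negative fractions D12S- and D16S-, the SSEA-1 positive fractions D12S+ and D16S+, iPSCs and ESD3. Peaks of D0 overlapped 32.4% of lost and 25.4% of gained peaks, a difference of -7.04 points (-7.76 to -6.32). Peaks of D3 overlapped 26.0% and 16.6%, a difference of -9.44 points. The direction over all peaks was the opposite in later cells: peaks of D12S+ overlapped 8.84% of lost and 14.8% of gained peaks (5.93 points), those of D16S+ 4.97% and 9.72% (4.76 points), those of iPSCs 19.6% and 26.3% (6.64 points, 5.96 to 7.32) and those of ESD3 9.77% and 14.0% (4.25 points). Over all peaks, lost peaks were thus more often peaks of D0 and D3, and gained peaks more often peaks of cells further on. Lost peaks also had the higher share in D6T+, the Thy-1 positive cells of Day 6 (20.7% against 15.0%, -5.72 points). The D6T+ difference was -8.51 points with equal numbers and -7.43 at 4-fold enrichment. Gained peaks also had the higher shares in the SSEA-1 negative fractions D12S- (45.4% against 37.4%) and D16S- (24.1% against 18.8%, 5.23 points). The D9T+ difference was 1.31 points and turned to -1.34 with equal numbers. Among peaks of at least 4-fold enrichment, 38917 in D6T- and 17967 in D9T-, the differences in D0 and D3 kept their direction (-7.24 and -8.69 points), but those of the later cells all reversed: D12S+ to -4.61, D16S+ to -3.24, iPSCs to -1.53, ESD3 to -3.66, D12S- to -4.21 and D16S- to -4.67 points.

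The contrast was wider among peaks of high score, which is not divided by length. At scores of 20 to 40, D0 peaks overlapped 57.9% of 2567 lost and 37.9% of 810 gained peaks. In the same band D12S+ peaks overlapped 20.4% and 47.5% and iPSC peaks 33.2% and 52.6%. Fractions off the route also overlapped gained peaks more often there: D12S- peaks 72.9% of lost and 90.9% of gained, and D9T+ peaks 48.1% and 56.2%. Selection by 4-fold enrichment instead of score gave the reversed differences in later cells listed above. At scores of 40 or more the shares were 74.2% of 248 lost and 30.2% of 43 gained peaks for D0, and 37.1% and 65.1% for D12S+. Most unmatched peaks were far below these scores, and their shares in the other libraries differed less.

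By shared covered length, the step from Day 6 to Day 9 was the most conserved of those leading from D3 to D12S+. By share of peaks lost the order depended on the lists. With all peaks it was 44.0% from D3 to D6T- and 49.9% from D6T- to D9T-, and with equal numbers 45.6% and 43.0%. From D3 to D6T-, 44.0% of peaks were lost and 58.1% gained, with 0.287 of the joint covered length shared (the Jaccard index). From D6T- to D9T- the index was 0.398, and from D9T- to D12S+, with 66.1% lost and 40.2% gained, it was 0.245. From D9T- to D12S-, the fraction that leaves the route, it was 0.413, with 29.4% lost and 51.1% gained. In the Thy-1 positive cells, coverage went from 69.9 Mb in D6T+ to 77.6 Mb in D9T+, with 48.8% of peaks lost and 52.8% gained and an index of 0.307. Net loss of covered length between these days was thus found in the Thy-1 negative libraries and not in the Thy-1 positive ones, and this difference was not tested. These indices also move with the number of peaks in each list.

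Motif content differed little between lost and gained distal peaks. In 500 bp windows, AP-1 matches, the binding motif of the Fos and Jun factors that act at fibroblast enhancers, were in 18.2% of 31323 lost, 19.8% of 26888 kept and 16.0% of 18524 gained peaks, against 13.9%, 13.8% and 14.0% of windows 5 kb beside them. The gained share was 2.18 points below the lost share (difference -2.18, -2.85 to -1.49). KLF matches were in 11.1% of lost, 15.0% of kept and 12.5% of gained windows (difference 1.42, 0.84 to 2.02) and OCT matches in 11.5%, 12.0% and 12.2% (difference 0.74, 0.16 to 1.34). For TEAD (25.4% and 25.3%) and SOX (7.94% and 7.82%) the interval of the difference held 0. The windows beside the peaks held KLF matches in 8.63% and 9.39% and OCT matches in 10.2% and 9.77% for lost and gained peaks. Base composition was similar, with 43.8% GC in lost and 44.0% in gained windows. A match is a description of letters and shows no binding.

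At genes, fewer carried H3.3 on Day 9. A gene was counted as bound when a peak overlapped it or the 1000 bp to either side, and its summed score took from each peak the part that its covered length gives. Of 22238 protein-coding genes, 13493 were bound in D6T- and 12975 in D9T-. Of all genes, 1335 (6.00%) lost and 817 (3.67%) gained H3.3, and 12158 were bound on both days. With equal numbers of top peaks, 1055 (4.74%) were lost and 1110 (4.99%) gained, so that the direction of the gene balance turned with the length of the list. Among genes bound on both days the median log2 ratio of summed score, D9T- over D6T-, was -0.43. Ratios were therefore centred on that median, and a gene was called higher or lower when its centred ratio passed 2-fold. By this rule 1254 genes (10.3%) were higher and 1455 (12.0%) were lower. Without centring they were 646 and 2821. Per covered kb, 1 gene was higher and 1 lower, so that the changes in score below went with covered length. The score per kb is measured only inside listed peaks and moved little between libraries. In 30 fibroblast matrix genes it was 16.1 in D0 and 15.5 in D16S+, where their summed scores were 15739 and 216. A lower level of H3.3 can also show as a shorter covered length, so level and length cannot be told apart here. Giving each peak to the genes that hold its midpoint, the rule planned at first, called 1540 genes lost (6.93%) and 1124 gained (5.05%), with 13.0% higher and 13.8% lower, and with equal numbers 5.50% lost, 6.66% gained, 13.2% higher and 13.4% lower; it was set aside because 22.1% of its lost and 32.8% of its gained genes were covered by a peak on the other day. A gene without a listed peak is given as 0 here. A 0 says only that no peak was listed: the lowest listed scores were 4.89 in D6T- and 4.63 in D9T-, and over dense input a higher signal can also miss the 2-fold enrichment limit.

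The 10 genes named among those that lost all H3.3 peaks had Day 6 scores of 72.3 to 96.2. Npc2, which carries cholesterol out of lysosomes, went from 96.2 over 7.29 kb to 0. Clspn (claspin), a checkpoint protein at replication forks, went from 92.0 to 0, and Rad54l, a motor of homologous recombination, from 78.1 to 0. All had scores in D0 as well, of 227, 9.46 and 99.1. The others of the 10 were Apool (94.9, over input 11.7 times the median density), Cope (82.0), Ica1l (77.6), Gusb (77.5), a lysosomal enzyme often used as a reference gene, Phtf1 (77.2), Ndst2 (73.3) and Smap1 (72.3). Of these 10, only Ndst2 was without an H3K4me3 peak on both days.

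Genes that gained H3.3 from 0 were led by Pou5f1, which codes for Oct4, the factor at the centre of the pluripotency network. Its score went from 0 to 144.7 in a single peak of 0.844 kb, at chromosome 17, 35642982 to 35647721 for the gene, with 2.04-fold enrichment over input reads 21.5 times as dense as in the median peak. The factor was delivered by retrovirus and the cells carry GFP at Oct4, and the source of the dense input was not tested. Among the libraries with a peak in the gene, input was at least 21.3 times the median density in all those from the MEFs and 1.31 times in ESD3, where enrichment was 4.33-fold. The Pou5f1 gain thus cannot be told apart from an effect of dense input. Sox2, Klf4 and Myc, also delivered by retrovirus, had input at 1.58 to 1.85 times the median density and scores of 25.8 and 28.0, 89.7 and 100.1, and 62.1 and 63.6 on the 2 days.

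The other gained genes had less dense input except Sprr2a2 (0 to 76.0, at 7.64 times the median). Sntg1 went from 0 to 96.7 over 5 peaks and 6.82 kb, and scored 277 in D12S+ and 340 in iPSCs. Rad21, a core subunit of cohesin, went from 0 to 76.0 over 5.54 kb and scored 36.2 in D12S+ and 78.4 in iPSCs. Sgpl1 went from 0 to 76.9, but scored 241 in D0 and 86.5 in D3, so that the gene had carried H3.3 before Day 6. Ing3, a subunit of the NuA4 histone acetyltransferase complex, went from 0 to 58.2, and Pdha1, a subunit of pyruvate dehydrogenase, from 0 to 39.7. Nynrin (45.1), Ptdss1 (44.3) and Adora1 (40.5) complete the 10.

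Among genes bound on both days, the 5 largest drops were at Tmem48, Nrg1, Zmym1, Cdh2 and Mamdc2. Nrg1, the neuregulin ligand of ErbB receptors at chromosome 8, 32928500 to 33119581, went from 167.2 over 12.1 kb to 6.49 over 0.50 kb, a ratio of 0.04 (exact 95% interval on tags 0.02 to 0.06). Its score had been 168 in D0 and 133 in D3 and was 0 in D12S+ and iPSCs. Cdh2, the N-cadherin of mesenchymal cells, went from 148 to 7.57 (ratio 0.05, 0.03 to 0.08), after 301 in D0 and 314 in D3, and was at 0 in iPSCs. Tmem48, a nuclear pore protein gene, went from 122 to 2.58 (ratio 0.02, 0.01 to 0.04), Zmym1 from 112 to 5.56 and Mamdc2 from 104 to 5.87. Nrg1, Cdh2 and Mamdc2 were thus fibroblast-bound genes without an iPSC peak, whereas Zmym1 scored 114 in iPSCs. In the other direction, Fry, a regulator of the NDR kinases, went from 7.58 to 100.1 (ratio 13.5, 8.76 to 21.8). Lars2, a mitochondrial tRNA ligase gene, went from 11.8 to 100.9, over input 3.3 times the median density. Clec2g went from 40.9 to 255 (ratio 6.26, 5.16 to 7.63), with 0 in D0 and D3 and 298 in D12S+. Apobec1, a cytidine deaminase, went from 20.1 to 124, and Prkar1b, a regulatory subunit of protein kinase A, from 30.02 to 129.

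**Figure D2:**
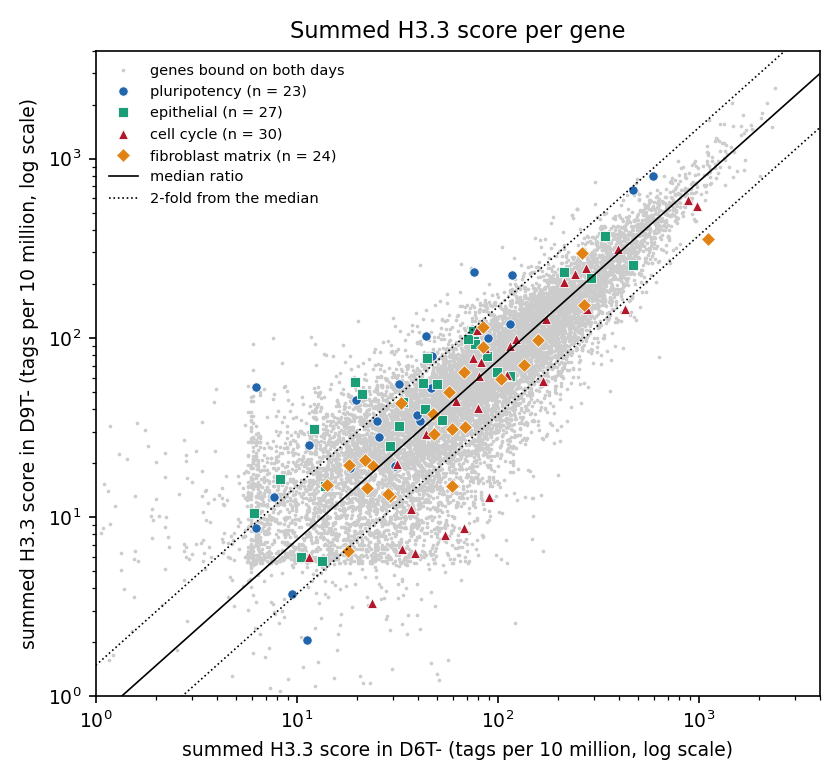
Summed H3.3 score of each gene in D6T- (horizontal axis) and D9T- (vertical axis), both in tags per 10 M on log scales. Grey points are the 12158 genes bound on both days, coloured symbols mark 4 gene lists, the solid line is the median ratio and the dotted lines lie 2-fold from it. Pluripotency genes lie mostly above the median line, and 9 cell cycle genes lie below the lower dotted line.

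Pluripotency genes gained more than all genes did. Of 36 listed genes, 23 were bound in D6T- and 28 in D9T-, with 5 gained and none lost. Of the 23 bound on both days 9 passed 2-fold higher (against 10.3% of all genes) and 1 lower, and 20 lay above the median of all genes. The list median was 0.89 on the centred log2 scale and 0.69 with equal numbers. Trim71, a stem cell RNA-binding protein at chromosome 9, 114420393 to 114473487, went from 75.9 over 5.62 kb to 232 over 14.4 kb (ratio 3.06, 2.64 to 3.57). Sall4, a zinc finger factor of the Oct4 network, went from 44.0 to 102 (ratio 2.31, 1.88 to 2.85), after 0 in D0. Tcfcp2l1, a factor of naive pluripotency, went from 6.24 to 53.5, Tdh, the threonine dehydrogenase of mouse stem cells, from 19.7 to 45.0, and Fbxo15, an Oct4 target, from 117 to 226. Lefty2, Gdf3, Fgf4 and Dppa5a were the other genes past 2-fold, with Day 9 scores of 25.3, 79.1, 55.0 and 13.0. Besides Pou5f1, gained genes with small scores included Lin28a 17.0, Nr5a2 9.11 and Utf1 6.02. Mycn went from 11.3 to 2.05.

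Several core pluripotency genes had low scores or no listed peak. Nanog scored 6.24 on Day 6 and 8.65 on Day 9 in a 0.50 kb peak each, against 102 in D12S+ and 131 in iPSCs. Esrrb, Zfp42, Dppa2, Dppa3, Dppa4, Prdm14, Nr0b1 and Lin28b had no peak on either day. Among the enzymes of DNA methylation and demethylation, Tet1, which oxidises methylcytosine, went from 78.7 to 166 (ratio 2.11, 1.80 to 2.47), with 256 in D12S+ and 937 in iPSCs. Dnmt3l, the cofactor of de novo methylation, went from 0 to 8.50, and Mbd1 from 9.78 to 19.9. Of these 14 genes 13 were bound in D6T- and 14 in D9T-, and the other 11 bound on both days stayed within 2-fold. Thus 2 of 13 were higher, against 10.3% of all genes.

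Epithelial genes also lay above the median of all genes, without a higher total. Of 35 listed genes, 28 were bound in D6T- and 30 in D9T-, 6 of 27 passed 2-fold higher (against 10.3% of all genes) and none lower, and the list median was 0.56 (0.53 with equal numbers). The summed score of the list was 2359 in D6T- and 2267 in D9T-, against 1885 and 2961 for pluripotency genes, so the epithelial median was higher only relative to the lower level of all genes. St14, which codes for the epithelial protease matriptase, went from 19.6 to 56.5 (ratio 2.89, 2.14 to 3.95) and its inhibitor gene Spint2 from 12.1 to 30.9. The junction gene Cldn7 went from 21.2 to 48.9 and the adhesion gene Epcam from 44.5 to 76.8. Esrp1, a splicing factor of epithelial cells, also passed 2-fold, with a Day 9 score of 10.5. Cdh1, the E-cadherin gene, had 71.0 and 98.2, a centred log2 ratio of 0.89 that did not pass 2-fold. The claudins Cldn6 (15.1) and Cldn4 (6.80) and the repressor of mesenchymal genes Ovol2 (5.87) were gained, and Cldn3 (10.1) was lost. Most epithelial scores on Day 9 were thus low, and Cdh1 scored 675 in iPSCs.

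**Figure D3:**
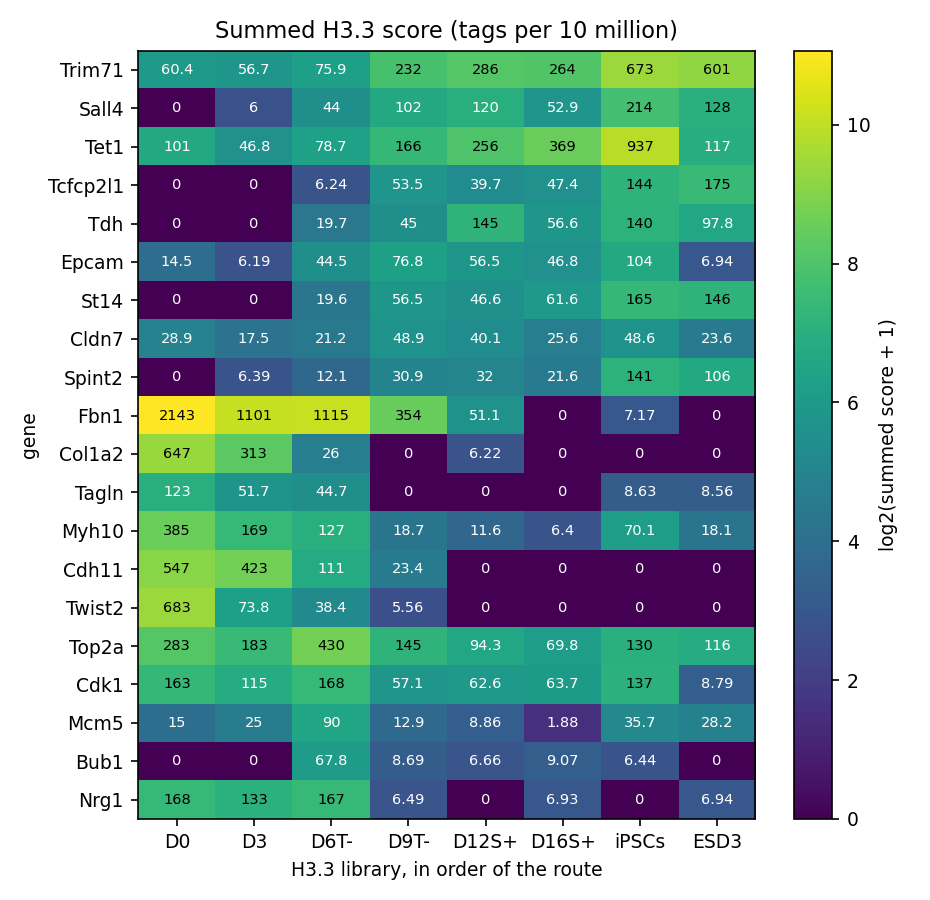
Summed H3.3 score (numbers in the cells, tags per 10 M; colour, log2 of score plus 1) of 20 genes, in rows, across 8 H3.3 libraries in order of the route. Trim71, Sall4 and Tet1 are higher in D9T- than in D6T- and higher again in iPSCs, while Fbn1 runs from 2143 in D0 to 354 in D9T- and 7.17 in iPSCs.

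Fibroblast matrix genes were called lower about as often as all genes. Of 30 matrix genes, 27 were bound in D6T- and 24 in D9T-, 3 of 24 passed 2-fold lower (against 12.0% of all genes) and none higher, and the list median was -0.23, or -0.07 with equal numbers and 0.069 when peaks were given to the nearest start site. Fbn1, the gene of the microfibril protein fibrillin 1 at chromosome 2, 125126330 to 125333729, went from 1115 over 80.8 kb to 354 over 25.2 kb (ratio 0.32, 0.30 to 0.34), with 13.8 and 14.0 tags per 10 M in each covered kb. Its covered length had thus dropped, while the score per kb, measured only inside listed peaks, cannot show whether the level also fell. Thbs1 (thrombospondin 1) went from 59.5 to 15.0 and Tnc (tenascin C) from 17.9 to 6.49. Col1a2, a chain of type I collagen, went from 26.0 to 0, after 647 in D0 and 313 in D3, and Col6a2 and Loxl1 went to 0 from 8.43 and 6.07. The D0 score of the 30 genes together was 15739, against 2871 in D6T- and 1660 in D9T-, so that most of the difference from MEFs was already present on Day 6.

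Genes of contraction and adhesion had a list median of 0.035, with 3 of 24 lower (against 12.0% of all genes) and 1 higher. Myh10, a non-muscle myosin, went from 127 to 18.7 (ratio 0.15, 0.11 to 0.19) and Cdh11, the osteoblast cadherin, from 111 to 23.4 (ratio 0.21, 0.16 to 0.27). Tagln, the smooth muscle protein transgelin, went from 44.7 to 0, and Myl9 from 1.21 to 0. Csrp1 went the other way, from 37.6 to 109. Among 24 mesenchymal regulators, 19 were bound in D6T- and 18 in D9T-, with a list median of 0.21. Of the 18 bound on both days 2 were higher and 2 lower, against 10.3% and 12.0% of all genes. Twist2, a driver of the mesenchymal state, went from 38.4 to 5.56 (683 in D0), Cbfb from 223 to 82.1 and Foxc2 from 8.60 to 0. Klf6, with 108 and 162, and Twist1, with 1.09 and 8.65, passed 2-fold higher after centring. These lists thus held genes that went each way.

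By overlap, cell cycle genes kept H3.3 peaks but over a shorter covered length. All 30 listed genes were bound on both days, and 9 passed 2-fold lower (against 12.0% of all genes) and none higher, with a list median of -0.20. With equal numbers 8 passed 2-fold lower. By peak midpoint 3 genes were lost and 1 gained, and of 26 bound on both days 7 were lower and 2 higher. Top2a, which untangles DNA in mitosis, went from 430 over 28.0 kb to 145 over 11.2 kb (ratio 0.34, 0.30 to 0.37). Cdk1, the kinase that starts mitosis, went from 168 to 57.1, and Bub1, a spindle checkpoint kinase, from 67.8 to 8.69. The replication helicase subunits Mcm5 and Mcm2 went from 90.0 to 12.9 and from 38.9 to 6.33. Aurka, Plk1, Mki67 and Ccnb2, genes of mitosis and proliferation, went from 54.6, 33.3, 37.1 and 23.6 to 7.93, 6.67, 11.1 and 3.33. All 9 had an H3K4me3 peak on both days. The housekeeping list, for comparison, had 1 of 29 genes lower, none higher and a median of -0.052.

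Genes of H3.3 handling were bound on both days, all 12 of them. Ubn2, a subunit of the Hira complex, went from 207 to 54.2 (ratio 0.26, 0.22 to 0.31), and Atrx, the remodeller that deposits H3.3 at repeats, from 70.7 to 12.8 (ratio 0.18, 0.12 to 0.25). Hira itself had 292 and 141, a centred log2 ratio of -0.62, which did not pass 2-fold. Asf1b, a histone chaperone, went from 10.1 to 24.5. Of the 12 genes 2 passed 2-fold lower and 1 higher, against 12.0% and 10.3% of all genes. The list median was 0.14, or -0.016 by nearest start site.

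TGF-beta and MAPK genes went each way, and most AP-1 genes lay above the median of all genes. Of 24 TGF-beta pathway genes, 23 were bound in D6T- and 22 in D9T-. Of the 22 bound on both days 2 were higher and 1 lower, against 10.3% and 12.0% of all genes. The receptor Tgfbr2 had 310 and 474, Tgfb1i1 6.4 and 11.7, and the Smad corepressor Skil 63.3 and 7.93. Inhba, an activin subunit, went from 25.5 to 0. Of the MAPK cascade, 26 of 26 genes were bound in D6T- and 25 in D9T-. Of the 25 bound on both days 3 were higher and 6 lower, against the same 10.3% and 12.0% of all genes. The MAPK list median was -0.092. The kinases Mapk14 (p38 alpha), Map3k3 and Map2k1 (MEK1) went from 339, 328 and 262 to 104, 119 and 95.9, and Braf from 96.7 to 153. Of 14 AP-1 factor genes, 12 were bound in D6T- and 13 in D9T-, with Batf (7.26) gained. Atf3, a stress-induced factor, was higher (20.4 to 36.2), and 11 of 12 lay above the median of all genes (list median 0.53). The summed score of the AP-1 list did not rise, with 1181 in D6T- and 1154 in D9T-. Junb had 86.8 and 91.2 and Fosl1 193 and 133, and both had an H3K4me3 peak on each day.

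Polycomb and germline genes had single changes. Of 26 Polycomb genes, 25 were bound on each day. Of the 24 bound on both days 1 was higher and 1 lower, against 10.3% and 12.0% of all genes. Phc1 went from 44.8 to 81.9 and Pcgf6 from 77.7 to 22.6, while Pcgf1 (31.2) was lost and Ring1 (4.98) gained. Of 23 germline genes, 8 were bound in D6T- and 7 in D9T-. Gtsf1 (14.8), Rnf17 (11) and Mael (7.58) were lost, Dazl (21.2) and Tdrd12 (6.49) gained, and Brdt had 8.09 and 17.1. Markers of other cell types that the sort could hold were bound in 6 and 6 of 16 macrophage, 9 and 9 of 15 endothelial, 6 and 7 of 14 neural and 6 and 5 of 14 muscle genes on Days 6 and 9. Of all genes, 60.7% were bound in D6T- and 58.3% in D9T-, so these counts show no excess of such markers. The gene Thy1, at chromosome 9, 43851467 to 43856662, had no H3.3 peak in either Thy-1 negative library and scored 69.3 in D0, 28.8 in D6T+ and 50.1 in D9T+, which matches the sort.

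**Figure D4:**
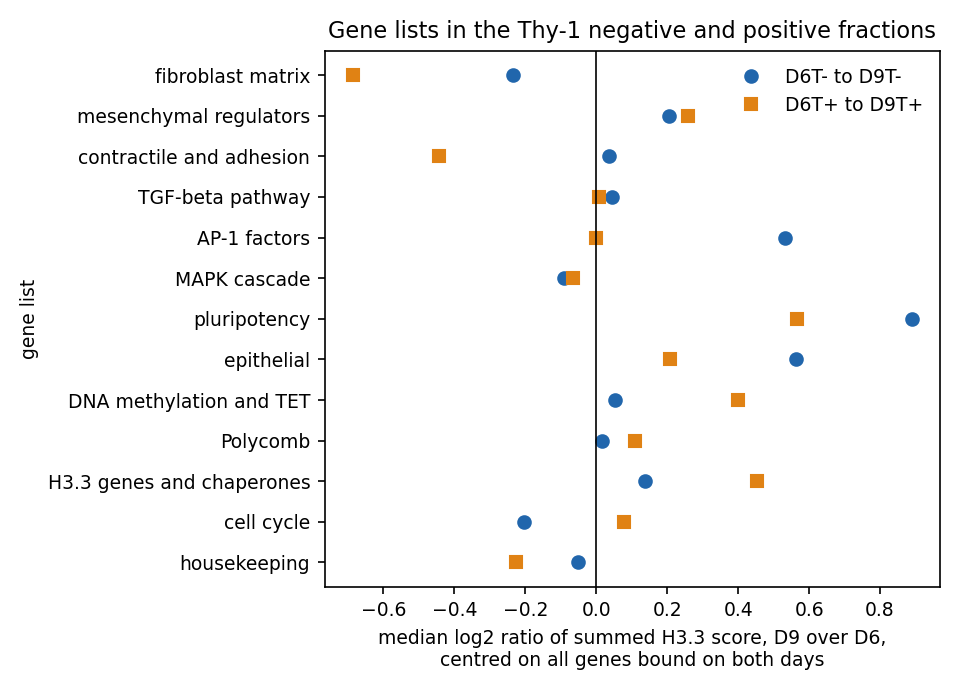
Median centred log2 ratio of summed H3.3 score, D9 over D6 (horizontal axis), for each gene list (vertical axis) in the Thy-1 negative cells (circles) and the Thy-1 positive cells (squares), shown for lists with at least 10 genes bound on both days. Pluripotency genes are at 0.89 and 0.57, fibroblast matrix genes at -0.23 and -0.69 and cell cycle genes at -0.20 and 0.08.

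The Thy-1 positive cells were compared in the same way between D6T+ and D9T+. Bound genes went from 11819 to 12238, with 1148 lost and 1567 gained. Of the 10671 genes bound on both days, 1297 were 2-fold lower and 1433 higher after centring. Matrix genes had a list median of -0.69 with 7 of 26 genes lower, and contractile genes -0.44 with 7 of 27 lower. In the Thy-1 negative cells 3 of 24 genes of each list were lower, against 12.0% of all genes. Pluripotency genes went from 13 to 19 bound with a median of 0.57, epithelial genes from 21 to 24 with 0.21, AP-1 genes had 0.00 and cell cycle genes 0.08. These medians are relative to all genes of each fraction, whose median log2 ratio was -0.43 in the Thy-1 negative and 0.09 in the Thy-1 positive cells. The summed matrix score went from 2871 to 1660 in the Thy-1 negative and from 5105 to 3820 in the Thy-1 positive cells, with 27 and 24 and with 27 and 27 genes bound, so that which fraction changed further depends on the centring. The differences between fractions were not tested.

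Lost and gained genes were also followed in the other libraries. Of the 1335 lost genes, 66.1% were bound in D0 and 54.9% in D3, and of the 817 gained genes 52.5% and 38.8% (all genes, 61.9% and 57.4%). In D12S+ the shares were 28.8% and 40.3%, in D16S+ 23.8% and 34.8% and in iPSCs 58.3% and 64.0% (all genes, 50.3%, 43.5% and 61.3%). Gained genes were thus bound less often than all genes in D12S+ and D16S+, and in iPSCs both sets were near the share of all genes. Of the lost genes, 446 (33.4%) had no peak in D12S+, D16S+ and iPSCs, while 778 had one again in iPSCs. Of the gained genes, 170 (20.8%) were bound in all of D12S+, D16S+ and iPSCs, and 505 (61.8%) had been bound in D0 or D3. Most lost genes were thus without a peak in D12S+ and in D16S+, while most had one in iPSCs, the library with the most tags (41.2 M). Most gained genes had a listed peak in D0 or D3, but 61.9% of all genes had one in D0 alone, so this does not set the gained genes apart. The shares of all genes along these paths were not counted. Median scores were low, 8.93 in D6T- for lost and 7.72 in D9T- for gained genes. Regain and reappearance were therefore not told apart from weak peaks near the lowest listed scores.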

How the data were processed

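H3.3, H3K4me3 and H3K36me3 ChIP-Seq peak lists were used. The authors mapped reads to mm9 with STAR and called peaks per library, each against its own input, with HOMER findPeaks in histone style. Versions are not given in the sources used here. The deposited signal is the Normalized Tag Count per 10 M tags, as named in the file headers. Per the file headers, peaks passed a fold over input of 2 for H3.3 and a p-value of 1e-04; these deposited p-values were not used as a test between days. Replicates were not pooled: each group had 1 library. The members and gene lists were chosen with earlier results of these data known.

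Peaks were matched by overlap of at least 1 bp (python 3.11.15, pandas 2.3.3, numpy 2.4.6) and genes were taken from the GENCODE vM1 annotation of NCBIM37 (mm9). Shares have 95% Wilson and differences 95% Newcombe intervals, and score ratios exact conditional binomial intervals on tags (scipy 1.17.1). These cover counting error only, and tags may include copies of one molecule. The scripts were tested on simulated data.

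Named genes were the 10 highest-scoring gained and lost genes, the 5 largest ratios in each direction at a score of 100 or more, and members of the gene lists. The planned gene rule, by peak midpoint, named 10 gained and 10 lost genes that were all covered by a peak on both days, so overlap with the gene, chosen after seeing the data, was used instead. Some loci and genes are not reported here.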

Additional observations from a re-analysis of the deposited data

Results flagged for a closer look

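Covered length moved in opposite directions in the 2 fractions between Day 6 and Day 9: the difference was -31.4 Mb in the Thy-1 negative and 7.69 Mb in the Thy-1 positive cells. Bound genes, counted by overlap, changed by -518 and by 419. With 1 library per fraction and day, neither difference between fractions was tested.

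Input reads, which the comparison of H3.3 peaks did not use as a measurement, stood out at Pou5f1: under the D9T- peak in the gene they were 21.5 times as dense as in the median peak of that library. In D12S+, D16S+ and iPSCs the peaks in the gene scored 1995, 2841 and 5742 at 28.1, 36.01 and 28.2 times the median, with 2.50-fold, 2.26-fold and 2.59-fold enrichment. The source of these input reads was not tested.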

How the results depend on the processing

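Over 36 results, 106 alternative values were computed, of which 69 stayed within the limits set for an unchanged value, 25 moved and 12 changed sign. The share of D6T- peaks lost was 43.0% with equal numbers, 45.7% with equal numbers by score per kb, 86.2% at 4-fold enrichment, 65.4% when an overlap of 0.5 of the peak was asked and 38.3% with a gap of up to 1000 bp. The share of D9T- peaks gained was 37.1%, 39.9%, 68.8%, 46.9% and 22.7%. At 4-fold, 38917 D6T- and 17967 D9T- peaks remained, so that the lists differed more in length. The D0 difference was -9.31 points with equal numbers and -4.37 per kb, and the iPSC difference 5.36, 8.03 and, at 4-fold, -1.53. For H3K4me3 the difference was -1.61 at 4-fold, and for H3K36me3 -13.2 with equal numbers and -2.70 at 4-fold. In 300 bp windows the motif differences were -1.26 for AP-1, 0.060 for SOX and 0.82 for KLF.

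By peak midpoint, 1540 genes were lost and 1124 gained, 1453 were 2-fold higher and 1552 lower. At 4-fold, 4518 genes were lost. Without centring 831 were higher and 2809 lower, per kb 2 and 4, and by overlap per kb, an alternative chosen after seeing the data, 1 and 1. List medians changed sign from the midpoint values under these alternatives: by nearest start site, matrix genes 0.069, mesenchymal regulators -0.010, H3.3 genes and chaperones -0.016 and neural markers -0.23; with equal numbers, Polycomb -0.043 and housekeeping -0.011; by overlap, contractile genes 0.035, DNA methylation 0.054 and housekeeping -0.052. The causes were not tested. No paired analysis was possible because each group had 1 library and no replicate number. Depth limits weak peaks most: scores near the lowest listed values rest on few tags.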
